A study of Mus musculus with 4 samples.

Results

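The 10 genes Krt8, Krt18, Krt19, Krt7, Lrp2, Cubn, Amn, Dab2, Lrpap1 and Fabp3 were taken by symbol from the 55453 genes of the count matrices, and all 10 were listed in each of the 4 plates. They comprise simple-epithelial keratins, endocytic receptors with their partners, and a fatty acid carrier, under the working name of keratins and endocytic receptors of trophectoderm. The RNA came from mouse embryos after injection of morpholinos, which are antisense oligonucleotides made to block the translation or splicing of an RNA. Control morpholino wells and NKX1-2 morpholino wells, against a homeobox transcription factor, alternated on every plate. There were 2 plates at the morula stage and 2 at the blastocyst stage, each with 96 wells. The labels give no strain, age or embryo of origin, and they give no further allele or agent in any group. They call the source single-cell, but whether each well held 1 cell is not stated.

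Keratins are intermediate filament proteins that assemble as pairs of a type II chain (Krt8, Krt7) with a type I chain (Krt18, Krt19), and the Krt8 and Krt18 pair is a classical mark of the first epithelium of the embryo, the trophectoderm. Lrp2, or megalin, is a giant receptor of the LDL receptor family that takes up proteins and lipoproteins at the apical face of absorptive epithelia. Its partner Cubn, or cubilin, has no membrane-spanning part and reaches the surface only with Amn, or amnionless. Dab2 is the clathrin adaptor that binds the tail of Lrp2, and Lrpap1 is the chaperone that keeps receptors of this family from binding ligands early in the secretory pathway. Fabp3 carries fatty acids in the cytoplasm. The receptors and Dab2 are also known from primitive endoderm, so markers of that lineage are given below.

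The plate was the replicate (n = 2 per stage), because wells are not tied to embryos and wells of a plate are not independent replicates. For the stages, p-values therefore measure the spread between plates. For the morpholinos, fitted with the plate as a block, they measure how far the difference within a plate varied from plate to plate. In the main fit that variation was estimated over both stages together. Either kind of spread may be technical. Of 384 wells, 16 had under 2000 detected genes and were left out, which left 191 of morula and 177 of blastocyst. Of the 16, 15 were blastocyst wells, with a median of 1221 counts. Their counts were summed per plate and morpholino into 8 sums of 1084312 to 2398605 counts. Levels are CPM, the counts of a gene scaled to the total counts of the sum, and levels between genes are CPM per kilobase of annotated exon length. Median counts per well ran from 22391 to 48648, with the blastocyst wells shallower and the NKX1-2 wells deeper than the control wells of the same plate. The share of wells with Xist and no Y-linked count also differed between morpholinos within plates, from 52.1% in control to 20.8% in NKX1-2 wells of morula replicate 1 and from 34.9% to 74.5% in blastocyst replicate 1. The part of depth and of sex in the results below was not tested.

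The labels give the cell type only as morula or blastocyst. The lineage in the working name was looked at with 19 trophectoderm markers that hold none of the 10 genes. Of these, 16 to 18 had counts in each sum, among them Gata3, Cdx2 and Ptges, whereas Gata2 was at 0 in 7 of the 8 sums and Elf5 in 5. The summed level of the list was 1680 to 2070 CPM in the morula and 853 to 974 CPM in the blastocyst. The epiblast and inner cell mass list summed to 3530 to 4200 CPM in the morula and 2720 to 3350 CPM in the blastocyst, most of it from Dppa5a, with 2200 to 2760 CPM in the group means. Nanog and Pou5f1 had 95.8 and 57.4 CPM in the mean control blastocyst sum. Primitive endoderm markers summed to 299 to 348 CPM in the morula and to 143 to 239 CPM in the blastocyst, with Foxa2 at 0 in all 8 sums. Cumulus and granulosa markers summed to 12.9 to 94.8 CPM, nearly all of it Amhr2, and oocyte markers to 9.22 to 54.8 CPM. The sums of both lists were higher in every morula sum than in any blastocyst sum. The part of these other cell types in the stage results was not tested.

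In the GRCm38 annotation, the keratins Krt7 (chr15:101411043-101430313), Krt8 (chr15:101996698-102004482) and Krt18 (chr15:102028180-102032027) lie in 1 cluster, with Krt8 and Krt18 23698 bases apart, and Krt19 lies at chr11:100140810-100148665. Lrp2 lies at chr2:69424340-69586065, Cubn at chr2:13276338-13491813, Amn at chr12:111271095-111276426, Dab2 at chr15:6299788-6440712, Lrpap1 at chr5:35091501-35105766 and Fabp3 at chr4:130308595-130315463. Promoter windows were found for 9 of the 10 genes. Those of the keratin pair, of the receptor Lrp2 with its adaptor Dab2, and of Fabp3 are shown, because the results below turn on the levels of these genes and on how they shared wells. Each is the 250 bases before the RefSeq start in GRCm38.p6, on the gene's strand, with GATAA, GCCNNNGGC (a palindrome bound by TFAP2 factors) and GGGCGG (bound by SP and KLF factors) or their reverse complements in capitals. None of the printed matches overlap. The window of Krt8 is chr15:102004343-102004592 on the minus strand and that of Krt18 chr15:102027966-102028215 on the plus strand. That of Lrp2 is chr2:69586030-69586279 on the minus strand, that of Dab2 chr15:6299539-6299788 on the plus strand (the first of 2 RefSeq starts) and that of Fabp3 chr4:130308488-130308737 on the plus strand.
Krt8: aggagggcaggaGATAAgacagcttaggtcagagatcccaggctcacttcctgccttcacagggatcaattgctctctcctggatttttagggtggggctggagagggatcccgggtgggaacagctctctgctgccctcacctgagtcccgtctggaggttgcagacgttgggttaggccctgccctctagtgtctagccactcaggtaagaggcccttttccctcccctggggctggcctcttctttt
Krt18: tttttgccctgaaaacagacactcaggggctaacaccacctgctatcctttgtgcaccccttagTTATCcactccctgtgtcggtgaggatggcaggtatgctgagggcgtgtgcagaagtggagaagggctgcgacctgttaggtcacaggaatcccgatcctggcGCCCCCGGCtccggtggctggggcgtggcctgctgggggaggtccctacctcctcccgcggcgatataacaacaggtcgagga
Lrp2: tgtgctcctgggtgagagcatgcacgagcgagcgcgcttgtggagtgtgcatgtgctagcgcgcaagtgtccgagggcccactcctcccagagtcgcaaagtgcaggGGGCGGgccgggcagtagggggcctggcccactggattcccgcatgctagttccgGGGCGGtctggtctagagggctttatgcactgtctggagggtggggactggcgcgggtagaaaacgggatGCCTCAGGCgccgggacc
Dab2: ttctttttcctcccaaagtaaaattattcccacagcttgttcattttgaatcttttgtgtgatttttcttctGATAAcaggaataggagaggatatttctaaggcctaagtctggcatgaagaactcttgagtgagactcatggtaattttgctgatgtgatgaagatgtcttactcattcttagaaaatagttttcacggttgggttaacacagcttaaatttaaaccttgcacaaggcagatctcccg
Fabp3: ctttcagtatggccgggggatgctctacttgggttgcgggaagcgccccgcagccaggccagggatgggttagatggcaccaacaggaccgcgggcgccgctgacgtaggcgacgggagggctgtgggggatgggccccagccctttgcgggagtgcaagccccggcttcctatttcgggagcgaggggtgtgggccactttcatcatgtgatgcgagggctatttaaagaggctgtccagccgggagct
The windows of Krt8, Krt18, Lrp2 and Fabp3 reach into GENCODE gene models that start upstream of the RefSeq start, and that of Dab2 does so with its last base.

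GATAA was found once in the windows of Krt8, Krt18 and Dab2 and in 22.6% of the 32851 promoter windows of all genes. GCCNNNGGC was found in the windows of Krt18 and Lrp2 and in 13.7% of all windows. The window at the second start of Dab2, which is not printed, held GCCNNNGGC and no GATAA, the reverse of the first. GGGCGG lay at 2 places in the window of Lrp2 against 32.7% of all windows with at least 1 match. The letters GGAATG, the core that TEAD factors bind, were in none of these 5 windows and in 12.6% of all, and TGANTCA, the AP-1 core, was in none and in 6.75% of all. TATAAA, the TATA box, and CACGTG, an E-box, were also in none of the 5, and in 12.4% and 6.02% of all windows. Both strands were searched. G and C made up 58.0% of the window of Krt8, 60.4% of Krt18, 64.8% of Fabp3 and 66.4% of Lrp2, all above the median of 52.4% over all windows. For Dab2 the share was 36.8% at the first start and 60.0% at the second. A match describes the letters only and is not a binding site.

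The first comparison asked which of the 10 genes changed between the morula and the blastocyst. Krt18, Lrp2, Dab2, Cubn and Fabp3 rose in both control and NKX1-2 wells, by 2.63 to 5.80 on the log2 scale in control wells, and Amn fell in both. Krt8 and Lrpap1 had fold changes of 0.53 to 0.79, and their calls depended on plates and scaling. Krt19 and Krt7 had too few counts to be tested. In control wells, 7 of 8 tested genes were higher and 1 was lower (adjusted p under 0.05 by edgeR's quasi-likelihood test, adjusted by Benjamini-Hochberg over 9577 genes). Of all genes tested there, 41.7% passed, 20.1% higher and 21.6% lower. In NKX1-2 wells, 6 of 8 were higher and 1 was lower, where 45.9% of 10221 genes passed, 21.9% higher and 24% lower. The genes that could be tested had a median log2 fold change of 2.89 in control and 3.14 in NKX1-2 wells, beside -0.01 and -0.02 over all genes. In sums of wells, fewer cells of a type and less RNA per cell cannot be told apart, and stage cannot be told apart from plate.

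The fold changes rest on TMM scaling, which sets the typical gene to no change. With library totals alone, a setting chosen after seeing the data, the median of all genes moved by -0.28 in control and by -0.25 in NKX1-2 wells. The share of all genes called higher was then 13.3% and lower 29.9% in control wells, and 15.3% and 32.2% in NKX1-2 wells. CPM values in the text are on that plain scale, so a gene of equal CPM at both stages has a fold change above 0 by TMM. Krt18, Lrp2, Dab2, Cubn, Amn and Fabp3 passed on both scales in both kinds of wells.

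**Figure D1:**
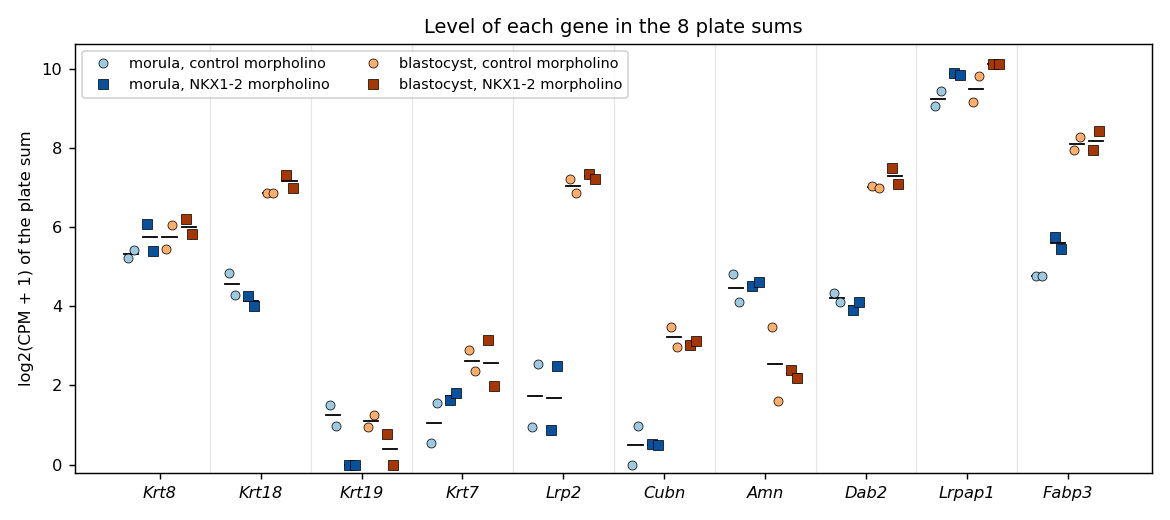
The level of each of the 10 genes is plotted as log2(CPM + 1) for each of the 8 plate sums, 2 plates per group, with a line at the mean of the group. Krt18, Lrp2, Cubn, Dab2 and Fabp3 sat higher in every blastocyst sum than in any morula sum, Amn sat lower, and Krt8 and Lrpap1 overlapped between the stages.

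Among the keratins, the type I chain Krt18 had 27.8 and 18.3 CPM in the 2 control morula sums, 18.1 and 15.0 CPM in the NKX1-2 morula sums, 116 and 116 CPM in the control blastocyst sums and 159 and 125 CPM in the NKX1-2 blastocyst sums. Every blastocyst sum was higher than every morula sum, and it rose with a log2 fold change of 2.63 (SE 0.26, edgeR adjusted p = 2.65e-08) in control and of 3.37 (SE 0.23, edgeR adjusted p = 1.21e-09) in NKX1-2 wells. Its type II partner Krt8 did not follow to the same extent. Krt8 had 36.2 and 41.8 CPM in control and 66.2 and 41.3 CPM in NKX1-2 morula sums, and 42.4 and 65.7 CPM in control and 72.2 and 55.8 CPM in NKX1-2 blastocyst sums. These stages overlapped, with the first NKX1-2 morula sum above the first control blastocyst sum.

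The log2 fold change of Krt8 was 0.79 (SE 0.27, edgeR adjusted p = 0.0247) in control wells and 0.53 (SE 0.25, edgeR adjusted p = 0.088) in NKX1-2 wells. The control call was lost without morula replicate 1 (0.62, edgeR adjusted p = 0.253), without morula replicate 2 (0.88, edgeR adjusted p = 0.0951), without blastocyst replicate 2 (0.46, edgeR adjusted p = 0.307) and with library totals alone (0.51, edgeR adjusted p = 0.143), in a range of adjusted p from 0.00172 to 0.307 over its 14 alternatives. In NKX1-2 wells Krt8 passed with the replicate number of the plates as a block (0.55, edgeR adjusted p = 0.0396) and without morula replicate 1 (0.86, edgeR adjusted p = 0.024), over a range of 0.024 to 0.578. Per kilobase, the level of Krt18 was 1.05 and 0.60 times that of Krt8 in control and 0.37 and 0.50 times in NKX1-2 morula sums. It was 3.73 and 2.41 times that of Krt8 in control and 3.01 and 3.06 times in NKX1-2 blastocyst sums. The balance of the pair thus lay with Krt8 or near equality in each morula sum and with Krt18 in each blastocyst sum. Of the 31-base stretches of Krt8 transcripts, 36.05% also occur in other genes, mostly the pseudogene Krt8-ps. That pseudogene held 1 count over all 384 wells, those left out included. Genes on the other strand overlap 5.16% of the exon length of Krt8. For Krt18 the shared part was 11.37%, and its largest sharer Gm5200 held 5 counts in all morula and 3 in all blastocyst wells.

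Krt19, the type I chain often found beside Krt18 in simple epithelia, had 9 counts in all control wells and 1 in all NKX1-2 wells. By sum, these were 4 and 2 counts in the control morula, 0 and 0 in the NKX1-2 morula, 1 and 2 in the control blastocyst and 1 and 0 in the NKX1-2 blastocyst. The ratio of NKX1-2 to control over all wells was 0.0958 (95% exact interval 0.00219 to 0.691, counting error only). In the morula alone the ratio was 0, with an exact interval of 0 to 0.755. Against a floor of 3 counts over the NKX1-2 wells, the 6 control counts of Krt19 were 2.25-fold higher. That figure leaves out the counting error of the 6 counts and is not a lower limit. No well held more than 1 count of Krt19. With no filter on low counts Krt19 could be tested and did not pass in the morula (edgeR adjusted p = 0.972), in the blastocyst (edgeR adjusted p = 1) or on average (edgeR adjusted p = 0.663).

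Krt7, a type II chain of ductal and glandular epithelia, had 1 and 4 counts in control and 5 and 6 in NKX1-2 morula sums, and 7 and 6 counts in control and 11 and 5 in NKX1-2 blastocyst sums. The ratio of blastocyst to morula was 4.33 (95% exact interval 1.45 to 15.5, counting error only) in control and 2.24 (0.976 to 5.34) in NKX1-2 wells. With no filter on low counts, the control difference had an edgeR adjusted p of 0.0405 (log2 fold change 2.22) and the NKX1-2 difference one of 0.171 (1.32). Of 18 further keratins, only Krt10 had enough counts to be tested, with a log2 fold change of 1.14 (SE 0.48, edgeR adjusted p = 0.0597) in control wells.

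Among the receptors, Lrp2 had the largest fold change of the 8 genes tested. It had 0.927 and 4.80 CPM in control and 0.843 and 4.59 CPM in NKX1-2 morula sums, and 148 and 116 CPM in control and 161 and 148 CPM in NKX1-2 blastocyst sums. The stages did not overlap, and replicate 2 was the higher of the morula plates in both kinds of wells. Lrp2 rose by 5.80 (SE 0.39, edgeR adjusted p = 7.61e-11) in control and by 6.07 (SE 0.34, edgeR adjusted p = 1.29e-10) on the log2 scale in NKX1-2 wells. As a ratio of summed counts, this was 45.8 (95% exact interval 25.9 to 89.5) and 56.5 (32.7 to 107), with counting error only. Between plates the estimate moved further. Without morula replicate 1 the log2 fold change of Lrp2 was 5.0 in control and 5.28 in NKX1-2 wells, and without morula replicate 2 it was 7.32 and 7.66. Without the highest well of each sum, a setting chosen after seeing the data, the control value of Lrp2 was 7.11. Of the 10 counts in the second control morula sum, 7 came from a single well.

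Cubn followed at a far lower level. It had 0 and 2 counts in control and 1 and 1 in NKX1-2 morula sums, and 11 and 10 counts in control and 10 and 13 in NKX1-2 blastocyst sums. Every blastocyst sum was higher than every morula sum. The ratio of blastocyst to morula was 17.5 (95% exact interval 4.27 to 154) in control and 17.7 (4.38 to 155) in NKX1-2 wells, with edgeR adjusted p-values of 0.000149 and 9.97e-05 for Cubn. In control wells its log2 fold change was 4.22, against 3.26 without morula replicate 1 and 6.87 without morula replicate 2, where the morula sum left had no count, so that value depends on the prior count of the fit. In NKX1-2 wells the value for Cubn without the highest well of each sum was 6.71.

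Amn, which Cubn needs to reach the membrane, moved the other way. Amn had 27.3 and 16.3 CPM in control and 21.9 and 23.3 CPM in NKX1-2 morula sums, and 10.1 and 2.05 CPM in control and 4.25 and 3.56 CPM in NKX1-2 blastocyst sums. Its stages did not overlap, and the first control blastocyst sum was the highest of its stage. Amn fell by 1.64 (SE 0.53, edgeR adjusted p = 0.0159) in control and by 2.25 (SE 0.42, edgeR adjusted p = 0.000329) on the log2 scale in NKX1-2 wells. Without morula replicate 1 the control fall was not called (-1.26, edgeR adjusted p = 0.127), nor without blastocyst replicate 2 (-0.76, edgeR adjusted p = 0.262), and it was -3.10 without blastocyst replicate 1. The adjusted p of Amn ranged from 3.96e-05 to 0.262 over 14 alternatives in control wells, and all 14 passed in NKX1-2 wells.

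Dab2, the clathrin adaptor of Lrp2, had 19.0 and 16.3 CPM in control and 13.9 and 16.3 CPM in NKX1-2 morula sums, and 131 and 125 CPM in control and 180 and 134 CPM in NKX1-2 blastocyst sums. The stages did not overlap, and the first NKX1-2 blastocyst sum was the highest. Dab2 rose by 3.15 (SE 0.26, edgeR adjusted p = 9.5e-10) in control and by 3.64 (SE 0.23, edgeR adjusted p = 5.44e-10) on the log2 scale in NKX1-2 wells. Before the blastocyst, Dab2 was found in more wells than Lrp2, with counts in 81 of 191 morula wells against 15 of 191 for Lrp2.

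Lrpap1, the chaperone, was abundant at both stages. It had 527 and 696 CPM in control and 956 and 913 CPM in NKX1-2 morula sums, and 569 and 903 CPM in control and 1110 and 1110 CPM in NKX1-2 blastocyst sums. The control sums of the stages overlapped, and both NKX1-2 blastocyst sums were the highest of all. The log2 fold change with stage was 0.56 (SE 0.19, edgeR adjusted p = 0.0253) in control and 0.53 (SE 0.11, edgeR adjusted p = 0.00107) in NKX1-2 wells. By DESeq2 the control differences of Krt8 (adjusted p = 0.113), Amn (adjusted p = 0.108) and Lrpap1 (adjusted p = 0.0649) did not pass, nor did Krt8 (adjusted p = 0.0793) and Lrpap1 (adjusted p = 0.0513) by edgeR with no filter on low counts. With library totals alone, Lrpap1 passed in neither (0.29, edgeR adjusted p = 0.233, and 0.27, edgeR adjusted p = 0.0524). The control call was also lost without morula replicate 1 (0.32, edgeR adjusted p = 0.283) and without blastocyst replicate 2 (0.23, edgeR adjusted p = 0.346), and the adjusted p ranged from 1.61e-05 to 0.346 over its alternatives.

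Fabp3 had 26.0 and 25.9 CPM in control and 52.3 and 42.9 CPM in NKX1-2 morula sums, and 244 and 309 CPM in control and 244 and 342 CPM in NKX1-2 blastocyst sums. The stages did not overlap, and within the morula both NKX1-2 sums were above both control sums. Fabp3 rose by 3.71 (SE 0.22, edgeR adjusted p = 3.93e-12) in control and by 2.91 (SE 0.20, edgeR adjusted p = 1.55e-09) on the log2 scale in NKX1-2 wells. Of its 31-base stretches, 50.06% also occur in other genes, 35.18% in the pseudogene Fabp3-ps1. That pseudogene held 42 counts in morula and 107 in blastocyst wells, those left out included. Further, 19.56% of the exon length of Fabp3 overlaps genes on the other strand, and the use of strand in the counting is not given in the sources used here.

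**Figure D2:**
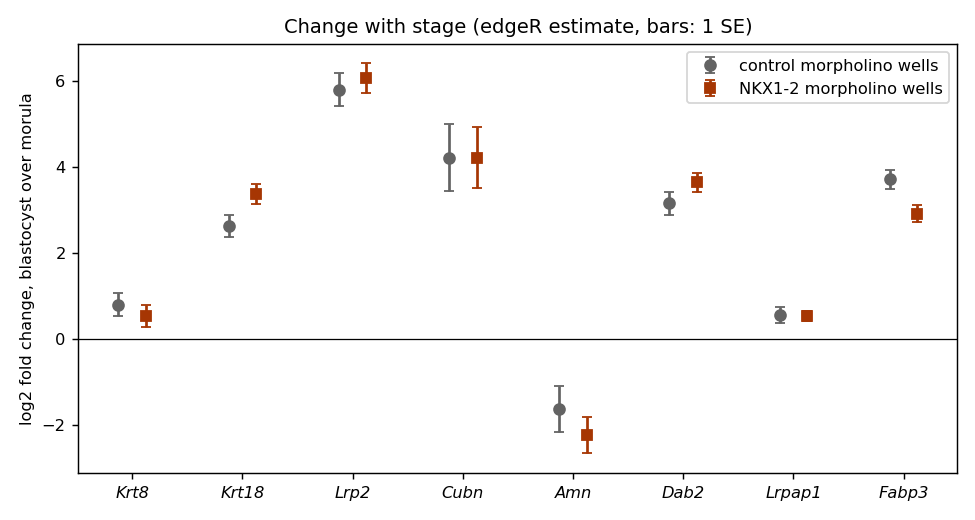
Log2 fold changes of blastocyst over morula from edgeR are plotted for the 8 tested genes, with bars of 1 SE, for control wells (circles) and NKX1-2 wells (squares). Lrp2 lies highest at 5.80 and 6.07, Amn lies below 0, and Krt8 and Lrpap1 lie between 0.53 and 0.79.

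The order of the levels per kilobase changed with stage. In control morula sums, Lrpap1 was first with 149 ± 29.0 CPM per kb (SD, n = 2), followed by Fabp3 with 31.5 ± 0.0177, Krt8 with 19.9 ± 2.03, Krt18 with 16.0 ± 4.70, Amn with 11.9 ± 4.23 and Dab2 with 2.41 ± 0.258. Krt8 and Krt18 overlapped between plates, as did Krt18 and Amn. Below 1 CPM per kb lay Krt19 with 0.759 ± 0.341, Lrp2 with 0.172 ± 0.164, Krt7 with 0.169 ± 0.146 and Cubn with 0.0322 ± 0.0455, and Lrp2 overlapped with both Krt7 and Cubn, which did not overlap with each other. In control blastocyst sums, Fabp3 came first with 336 ± 55.2, then Lrpap1 with 179 ± 57.3, Krt18 with 80.9 ± 0.0712, Krt8 with 27.6 ± 8.41, Dab2 with 17.4 ± 0.550, Lrp2 with 7.91 ± 1.39 and Amn with 3.31 ± 3.10. These neighbours did not overlap between plates, and Krt7 with 0.749 ± 0.236, Krt19 with 0.618 ± 0.170 and Cubn with 0.569 ± 0.156 again overlapped. In NKX1-2 wells, Lrpap1, Fabp3 and Krt8 held the first places in the morula, followed by Amn with 12.3 ± 0.549 and Krt18 with 11.5 ± 1.53, which overlapped. In the NKX1-2 blastocyst the order was Fabp3 with 356 ± 84.3, Lrpap1 with 270 ± 0.905, Krt18 with 99.0 ± 16.8 and Krt8 with 32.7 ± 5.94. Exon length is that of all annotated exons together, so these levels are approximate where short transcript forms dominate. Whether reads covered whole transcripts is not clear from the sources used here, so dividing by length may not suit these counts. In plain CPM the order differed, with control blastocyst means of 132 for Lrp2, 128 for Dab2, 116 for Krt18 and 54.1 for Krt8.

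The share of wells with a count showed whether a change in level came with more positive wells. Because deeper wells show more genes, the share expected after thinning each well to 10000 counts is given first, over the 365 kept wells of that depth, and the unthinned share over all kept wells second. Lrp2 went from 1.82% ± 1.38 (SD, n = 2 plates; 6.25% unthinned) in control morula to 47.0% ± 1.06 (65.1%) in control blastocyst wells. Dab2 went from 15.3% ± 3.25 (45.9%) to 50.0% ± 1.84 (69.8%), and Krt18 from 19.6% ± 5.02 (54.1%) to 43.0% ± 6.79 (57.0%). Fabp3 went from 18.4% ± 1.77 (45.8%) to 67.4% ± 19.4 (77.9%), Cubn from 0.338% ± 0.477 (2.08%) to 7.12% ± 1.82 (16.3%) and Amn from 19.2% ± 4.81 (55.2%) to 5.84% ± 4.90 (11.6%). The thinned shares of these 6 genes did not overlap between stages in control wells. How many of all genes separate in this way was not counted, and 41.7% of all genes tested passed the stage test of levels there. The thinned shares of Krt8 were 28.9% and 27.0% in the control morula and 26.8% and 39.5% in the control blastocyst, and overlapped. Lrpap1 was near saturation, with 97.7% ± 0.778 and 95.5% ± 5.37.

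In NKX1-2 wells the thinned shares moved in the same directions. Lrp2 went from 2.88% ± 2.60 to 56.4% ± 3.82, Dab2 from 12.3% ± 0.424 to 60.7% ± 6.22 and Krt18 from 15.7% ± 2.40 to 54.8% ± 3.96. Fabp3 went from 29.4% ± 2.90 to 68.2% ± 4.03, Cubn from 0.343% ± 0.0368 to 6.70% ± 0.587 and Amn from 18.7% and 21.3% in the morula sums to 3.66% ± 0.849. In blastocyst wells the thinned shares of Krt18, Lrp2 and Dab2 were higher in both NKX1-2 than in both control sums. Their means were 54.8% against 43.0%, 56.4% against 47.0% and 60.7% against 50.0%. This was not tested, and how many of all genes separate in this way was not counted. Their levels did not pass between morpholinos there (edgeR adjusted p = 0.557 for Krt18, 0.621 for Lrp2 and 0.562 for Dab2). Krt18 counts were 1 or 2 in most positive morula wells, with 25 of 103 positive wells at 3 or more, while 80 of 120 positive blastocyst wells had 3 or more. For Lrp2 in the blastocyst this was 78 of 126 and for Dab2 88 of 136. Positive wells were deeper in the median for Krt18 and Fabp3, 31564 against 28337 median counts for Krt18 in the blastocyst and 31866 against 22679 for Fabp3, whereas Amn-positive blastocyst wells had 29997 against 30881.

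**Figure D3:**
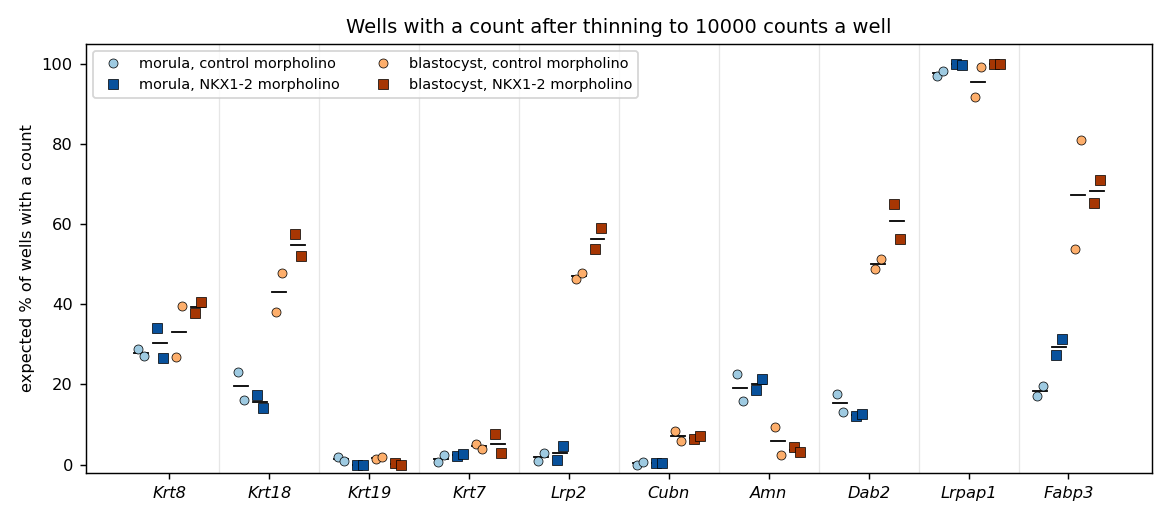
The percentage of wells expected to show a count after thinning to 10000 counts per well is plotted for each gene and plate sum, with a line at the mean of each group of 2 plates. Lrpap1 sits near 100% throughout, the blastocyst points of Krt18, Lrp2, Dab2 and Fabp3 lie above all their morula points, and those of Amn lie below.

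The next question was whether the genes were found in the same wells. Spearman's rho of CPM across wells was taken within each of the 4 groups of a stage (plate by morpholino) and averaged. It is a description only, since wells of a group share plate, library and differences in depth. Amn was kept apart from the 6 genes named next, with which its blastocyst means were -0.03 to 0.06. Krt19, Krt7 and Cubn had few counts and were also left out of this set. No baseline from pairs of other genes was taken. Among Krt8, Krt18, Lrp2, Dab2, Fabp3 and Lrpap1, all 15 pairs had a positive rho in each of the 4 blastocyst groups, with means of 0.27 to 0.63 and a median of 0.41. After thinning to 10000 counts, the median was 0.33 (0.10 to 0.51), and 3 pairs had a value below 0 in some group, with lowest values of -0.18 for Krt8 and Dab2, -0.03 for Krt8 and Lrp2 and -0.03 for Krt8 and Lrpap1. In morula wells the means ran from -0.08 to 0.24 with a median of 0.02, and 2 pairs were positive in every group. The low morula counts of Lrp2 limit what its rho there can show. The same limit holds for other genes. A single count was held by 61 of 103 Krt18-positive, 46 of 81 Dab2-positive and 45 of 104 Fabp3-positive morula wells.

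Lrp2 and Dab2, the receptor and its adaptor, had the highest mean rho of these pairs in unthinned blastocyst wells, 0.63 (0.49 to 0.73 between groups), and 0.01 in the morula. Thinned, their mean was 0.45 (0.15 to 0.62), below Krt18 with Dab2 (0.51) and Krt18 with Fabp3 (0.46). Dab2 had a count in 87.3% of the 126 Lrp2-positive blastocyst wells and in 51.0% of the 51 Lrp2-negative wells. Krt18 and Dab2 followed with 0.56 (0.52 to 0.61, 0.51 thinned). Krt18 had a rho of 0.52 with Fabp3 and of 0.50 with Lrp2, and Lrp2 one of 0.50 with Fabp3. The keratin pair itself reached 0.41 (0.27 to 0.61, 0.31 thinned), from 0.11 in the morula. Krt18 had a count in 75.9% of the 112 Krt8-positive and in 53.8% of the 65 Krt8-negative blastocyst wells. In the morula, Krt8 and Fabp3 had the highest mean rho of the 15 pairs, 0.24 (0.10 to 0.38), and Krt8 and Fabp3 reached 0.42 in the blastocyst.

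Cubn and Amn had values near 0 with these genes. Amn had mean rho values of -0.03 to 0.06 with the other 6 of these genes in blastocyst wells. Cubn and Amn together were in 6 blastocyst wells, with 25 wells of Cubn alone, 14 of Amn alone and 132 of neither, a mean rho of 0.11 (-0.06 to 0.21, -0.01 thinned). Cubn had a mean rho of -0.01 with Lrp2 (-0.18 to 0.09) and a count in 16.7% of the Lrp2-positive and 19.6% of the Lrp2-negative wells. With 31 Cubn-positive and 20 Amn-positive blastocyst wells, a weak relation was not detectable at this depth.

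**Figure D4:**
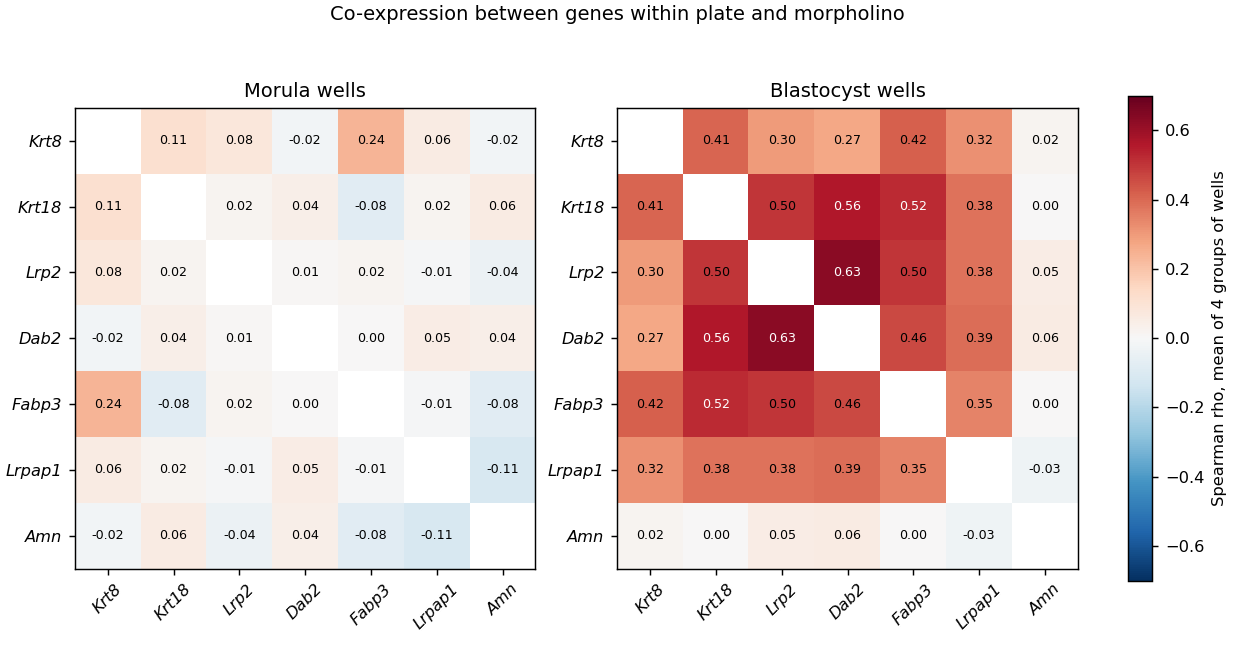
Mean Spearman rho between 7 genes is shown as a coloured matrix for morula and blastocyst wells, each the mean over 4 groups of wells (plate by morpholino). The blastocyst matrix is filled with values from 0.27 to 0.63 for all pairs without Amn, and the morula matrix and the Amn rows lie near 0.

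The 5 genes Krt8, Krt18, Lrp2, Dab2 and Fabp3 were counted together, a chosen set with Lrpap1 left out for its saturation. Amn, which fell with stage, and Cubn, Krt7 and Krt19, with few counts, were also left out. All of the 5 but Krt8 had risen with stage in both kinds of wells. A higher share with all 5 in the blastocyst thus follows in part from the choice. Wells with all 5 made up 0%, 0%, 0% and 2.13% of the 4 morula groups. In the blastocyst they made up 23.3% and 39.5% of control wells and 40.4% and 52.3% of NKX1-2 wells. Wells with none made up 0% to 8.33% in the morula and 0% to 6.98% in the blastocyst. Few wells at either stage thus lacked all 5. The median number of the 5 per well was 2 in each morula group and 3 to 5 in the blastocyst groups. Lrp2 had a count in only 15 of the 191 morula wells, so no more than those 15 could hold all 5. Wells with 4 of the 5 numbered 4, 5, 4 and 7 in the morula groups and 5, 12, 12 and 10 in the blastocyst groups. These counts are unthinned, and NKX1-2 wells were deeper than control wells of the same plate. The part of depth was not tested.

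Across blastocyst wells, the mean rho with the summed trophectoderm list was 0.59 for Dab2, 0.56 for Krt18, 0.55 for Lrp2, 0.54 for Fabp3, 0.43 for Lrpap1 and 0.39 for Krt8. It was -0.08 for Cubn and 0 for Amn, and in the morula it lay between -0.16 and 0.12 for all 10 genes. With the inner cell mass list, the mean rho of the 6 genes first named lay between -0.16 (Dab2) and 0.03 (Krt8). With the primitive endoderm list it lay between -0.12 (Lrp2) and 0.10 (Krt8), and it was -0.05 for Cubn and 0.05 for Amn. The values for both of these lists lay below those for the trophectoderm list in each of the 6 genes, and the summed level of the primitive endoderm list was low. Most of the inner cell mass sum was Dppa5a. Most of the primitive endoderm sum was Gata6, with 125 CPM in the control and 132 CPM in the NKX1-2 blastocyst mean. The values for these 2 lists thus rest largely on single genes. The trophectoderm sum was led by Klf5 with 280 CPM, Aqp3 with 124 CPM and Ptges with 105 CPM in the control blastocyst mean. That list also holds Gata3 and Ptges, which are among the genes most like Lrp2 below. The lists thus differ in make-up, which limits the comparison of their rho values.

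The genes most like each member were taken as the 3 with the highest mean rho among 5055 genes of at least 20 CPM. For Lrp2 these were Dab2 (0.63), the transcription factor Gata3 (0.61, 0.57 to 0.67 between groups) and the prostaglandin E synthase Ptges (0.59). For Dab2 they were Lrp2, Ptges (0.57) and Bmyc (0.56), a relative of Myc. Krt18 was most like the membrane-binding annexin Anxa2 (0.56), Dab2 (0.56) and the AP-2 adaptor subunit Ap2a2 (0.54). Fabp3 was most like Krt18, then the calponin Cnn3 (0.52) and Ap2a2 (0.52). Among the 3 of Krt8 were the chloride channel protein Clic4 (0.46) and Fabp3 (0.42), and Lrpap1 was most like the epithelial transcription factor Elf3 (0.58), Akr1b8 (0.47) and Uck2 (0.46). Lrp2 and Dab2 were each first in the other's ranking. Krt19, Krt7, Cubn and Amn had counts in under 30% of blastocyst wells and were not ranked.

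Genes of the same pathways, from lists made with earlier results of these data known, were read from the same stage fit of control wells. Over all genes of that fit, 20.1% were higher and 21.6% lower. Of 8 tested keratin and desmosome partners, 6 rose and none fell, with a median log2 fold change of 1.90. They included the desmosomal plaque protein Dsp (3.55, SE 0.55), Epcam, an epithelial adhesion molecule (2.11, SE 0.23), Pkp4 (1.93, SE 0.49) and the desmosome-associated Perp (1.91, SE 0.22). In NKX1-2 wells, 7 of 9 rose and 1, the plaque protein Jup (-0.99, SE 0.30), fell, a gene named after its value was seen. Of 9 other LDL receptor family genes and co-receptors, Lrp5 alone passed and fell (-1.70, SE 0.57, edgeR adjusted p = 0.0199), with a median of -0.08.

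Of 18 tested endocytic adaptor and clathrin genes in control wells, 3 rose and 3 fell, and 6 of 14 recycling genes passed, shares near or below the 41.7% of all genes. The clathrin heavy chain Cltc (2.70, SE 0.27) and the AP-2 subunit Ap2b1 (1.01, SE 0.33) rose, and the epsins Epn2 (-1.42, SE 0.29) and Epn1 (-1.21, SE 0.28) fell. In the recycling list, 4 rose and 2 fell, led by the retromer subunits Vps29 (2.90, SE 0.28) and Vps35 (1.54, SE 0.23), with Rab11fip5 at -1.11 (SE 0.44) and Ehd1 at -0.90 (SE 0.23). Of 6 tested ligands, Apoa1, the apolipoprotein of HDL that Cubn binds (5.49, SE 0.39), and Apoe (1.04, SE 0.24) rose, and the metallothioneins Mt2 (-0.94, SE 0.16) and Mt1 (-0.88, SE 0.14) fell. Of 11 fatty acid genes, the lipid droplet coat Plin2 (2.23, SE 0.25) and the carrier Fabp5 (1.86, SE 0.24) rose and 3 fell, with Dgat2, a triglyceride synthase, at -2.05 (SE 0.28) and the nuclear receptor Ppard at -1.34 (SE 0.53). Of 15 tested trophectoderm markers, 5 rose, among them Gata3 (3.22, SE 0.34) and Ptges (3.22, SE 0.29), and 6 fell, among them Hand1 (-2.33, SE 0.29). Cdh3 fell from 35.0 ± 11.5 CPM to 0 counts in both control blastocyst sums. In NKX1-2 wells, where 21.9% of all genes were higher and 24% lower, 8 adaptor genes rose and 4 fell of 20, 5 recycling genes rose and 2 fell of 15, 1 ligand gene rose of 7, 2 fatty acid genes rose and 4 fell of 12, and 6 trophectoderm markers rose and 6 fell of 17. Of the LDL receptor family, 2 of 8 passed there, both lower.

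The second comparison asked what the NKX1-2 morpholino did to these genes at each stage. On average over both stages, Lrpap1 and Fabp3 were higher in NKX1-2 than in control wells, by 0.60 and 0.46 on the log2 scale. Neither passed at the morula or the blastocyst alone, and the keratins, Lrp2, Cubn, Amn and Dab2 passed in no comparison of morpholinos. In the morula, 0 of 9 tested genes passed (same edgeR test and adjustment), where 0.57% of 10873 genes passed and 0.276% were higher. In the blastocyst, 0 of 9 passed, where 0.736% of all genes passed and 0.395% were higher. On average, 2 of 9 passed, both higher, where 2.98% of all genes passed and 1.63% were higher. For the difference between stages, 0 of 9 passed, where 0.0184% of all genes did. At an unadjusted edgeR p under 0.05 these counts of 0 become 2 (Lrpap1 and Fabp3), 1 (Lrpap1) and 2 (Krt18 and Fabp3), while DESeq2 and limma voom called 0 in each of the 3.

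Lrpap1 was higher in the NKX1-2 sum of each of the 4 plates, by the values above. Per plate, with a prior count of 2, the log2 ratio was 0.85 and 0.35 in the morula and 0.92 and 0.35 in the blastocyst, so replicate 1 showed the larger difference at both stages. The log2 fold change was 0.61 (SE 0.15, edgeR adjusted p = 0.124) in the morula, 0.60 (SE 0.15, edgeR adjusted p = 0.107) in the blastocyst and 0.60 (SE 0.11, edgeR adjusted p = 0.0137) on average. Within single stages Lrpap1 passed in 5 of 15 alternatives at each stage. The average effect of Lrpap1 passed in all 14 alternatives, with 0.46 to 0.75 and adjusted p of 3.81e-25 to 0.0184. Its difference between stages was -0.01 (edgeR adjusted p = 1). No 31-base stretch of Lrpap1 is shared with another gene.

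Fabp3 was higher in both NKX1-2 morula sums, with log2 ratios of 0.97 and 0.66, and near equal in the blastocyst, with -0.05 and 0.20. The log2 fold change was 0.86 (SE 0.19, edgeR adjusted p = 0.0516) in the morula, 0.05 (SE 0.14, edgeR adjusted p = 0.914) in the blastocyst and 0.46 (SE 0.12, edgeR adjusted p = 0.0487) on average. The difference between stages was -0.80 (SE 0.24, edgeR adjusted p = 0.515), so a difference between the stages was not shown, although it passed without blastocyst replicate 2 (-0.92, edgeR adjusted p = 0.0169, range 0.0169 to 1). The average call of Fabp3 passed in 6 of 14 alternatives. It was lost by DESeq2 (adjusted p = 0.37), by limma voom (adjusted p = 0.0734), with no plate block (edgeR adjusted p = 0.12), without morula replicate 1 (0.38, edgeR adjusted p = 0.577) and without morula replicate 2 (0.55, edgeR adjusted p = 0.184). The thinned share of Fabp3-positive morula wells was 27.3% and 31.4% in NKX1-2 against 17.1% and 19.6% in control wells, without overlap.

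**Figure D5:**
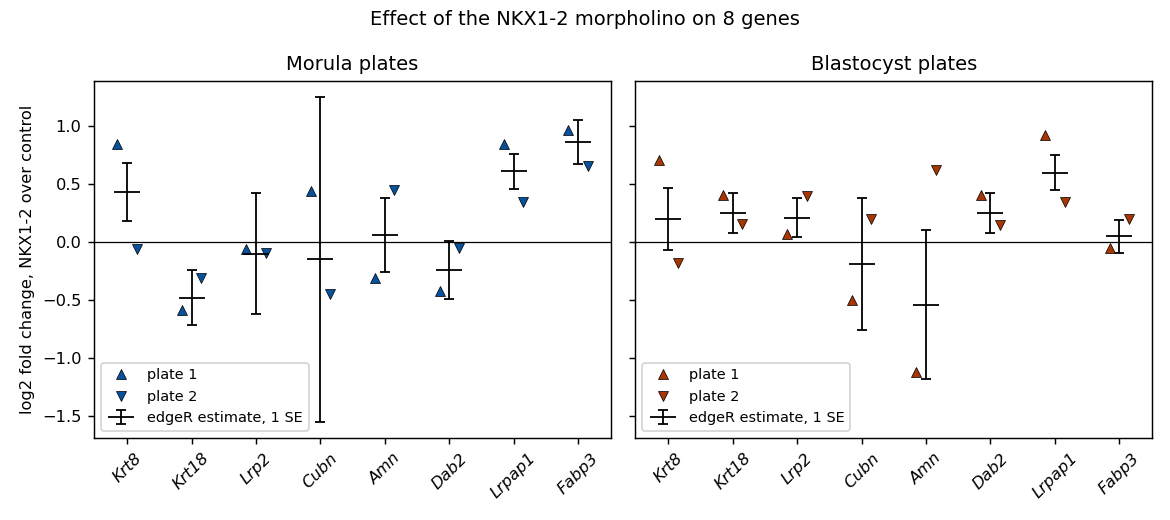
The log2 ratio of NKX1-2 over control is plotted per plate (triangles, prior count of 2) and as the edgeR estimate with bars of 1 SE, for the morula plates at the left and the blastocyst plates at the right; Krt19 and Krt7 are left out for their low counts. Lrpap1 lies above 0 in all 4 plates, Fabp3 lies above 0 in both morula plates, and Krt8 and Amn have plates on both sides of 0 at both stages.

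The other genes had small or divided differences. Krt18 was lower in both NKX1-2 morula sums (log2 ratios -0.59 and -0.31) and higher in both blastocyst sums (0.41 and 0.16), with fold changes of -0.48 (SE 0.24, edgeR adjusted p = 0.499) and 0.25 (SE 0.17, edgeR adjusted p = 0.557). The difference between stages was 0.73 (SE 0.29, edgeR adjusted p = 0.69). Dab2 showed the same signs, with -0.42 and -0.05 in the morula and 0.41 and 0.15 in the blastocyst, and a difference of 0.49 (SE 0.31, edgeR adjusted p = 0.851). Lrp2 had -0.06 and -0.09, then 0.07 and 0.40, and a difference of 0.31 (SE 0.56, edgeR adjusted p = 0.964). Krt8 was higher in NKX1-2 wells of replicate 1 at both stages (0.85 and 0.71) and slightly lower in replicate 2 (-0.06 and -0.18), with a mean effect of 0.31 (SE 0.18, edgeR adjusted p = 0.436). Without blastocyst replicate 2 the mean effect of Krt8 was 0.57 (edgeR adjusted p = 0.0132, range 0.0132 to 0.981). Amn had -0.31 and 0.45 in the morula and -1.12 and 0.62 in the blastocyst, and Cubn 0.44 and -0.45, then -0.50 and 0.20, so both were divided between plates at each stage. Krt7 had 1.00 and 0.22 in the morula and 0.20 and -0.32 in the blastocyst, from 5 to 16 counts a group.

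In the same fit of the average effect, pathway genes other than the 10 were called in a few cases. The LDL receptor family member Lrp8 (-1.39, SE 0.35, edgeR adjusted p = 0.0455) was lower, 1 of 9 tested, as were 2 of 20 adaptor genes, Snx17, a sorting nexin that recycles receptors of this family (-1.27, SE 0.25, edgeR adjusted p = 0.0138), and Arrb2 (-1.44, SE 0.28, edgeR adjusted p = 0.0126). Of 7 ligand genes, Mt2 (0.62, SE 0.09) and Mt1 (0.55, SE 0.06) were higher and Apoe (-0.70, SE 0.14) was lower. Of 12 fatty acid genes Fabp5 (-0.51, SE 0.13, edgeR adjusted p = 0.0456) was lower, and of 17 trophectoderm markers Gata3 (1.21, SE 0.22, edgeR adjusted p = 0.00939) was higher. Of 11 inner cell mass markers Dppa5a (-0.33, SE 0.06, edgeR adjusted p = 0.012) was lower. At the blastocyst alone, Plin2 (-1.19, SE 0.21, edgeR adjusted p = 0.0127) was lower in NKX1-2 wells. At the morula alone Gata3 was higher (1.87, SE 0.35, edgeR adjusted p = 0.0276), and no other of the 17 tested trophectoderm markers passed there. The median log2 fold change of those 17 was 0.12. Fabp3 and Lrpap1 did not pass at the morula alone, and the part of Gata3 in their differences was not tested. Apoa1 was higher in the NKX1-2 morula (2.84, SE 0.42, edgeR adjusted p = 0.00477) and lower in the NKX1-2 blastocyst (-1.38, SE 0.23, edgeR adjusted p = 0.00992), with a difference between stages of -4.22 (SE 0.48, edgeR adjusted p = 0.00142).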

How the data were processed

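The deposited files of the 4 plates hold raw counts per gene and well for 55453 genes, and the authors aligned reads with TopHat2 to GRCm38 (mm10), per the submitters' processing notes. No source used here gives the counting tool, its use of strand or any use of molecular identifiers. Groups came from the labels: even wells held control and odd wells NKX1-2 morpholino embryos. The genes and pathway lists described here were chosen with earlier results of these data known.

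Wells under 2000 detected genes were left out, and the counts of the rest were added up within each plate and morpholino (1084312 to 2398605 counts). Morpholinos were compared over 8 sums with a plate block, since control and NKX1-2 wells alternate on each plate. Same-plate deviations correlated at 0.256 in the morula and 0.00107 in the blastocyst. Stages were compared over 4 sums of 1 morpholino without a block. The tests were robust quasi-likelihood tests of edgeR 4.0.16 (R 4.3.3) with TMM scaling, filterByExpr and Benjamini-Hochberg adjustment over all genes, at 0.05. A run of 344 genes listed from U2af1 to V1rg10 had 0 counts in both morula plates and was dropped from these fits; it held none of the 10 genes. Alternatives used DESeq2 1.42.0, voom of limma 3.58.1, RLE scaling, other filters on genes and wells, thinning, the block, left-out plates and, chosen after seeing the data, library totals without TMM and each gene without its highest well. Scripts were tested on simulated data.

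Thinned shares are expected values at 10000 counts per well. Intervals are exact at 95%, and a floor of 3 counts stands for 0; both cover counting error only. All 10 genes are named in each comparison, pathway genes where they passed (up to 4 a list, by size), and the 3 genes of highest mean rho for each gene in at least 30% of blastocyst wells, among genes of at least 20 CPM. A gene that this last rule gives for Krt8 is not reported here. All 4 plates share the same 96 barcodes. Promoter sequences are from RefSeq, build GRCm38.p6.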

Additional observations from a re-analysis of the deposited data

How the results depend on the processing

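No fold change that passed its test changed sign under the alternatives run, while several that did not pass had both signs, such as Krt8 in the morula (-0.04 to 0.89). In the morula 0 of the 10 genes passed for the morpholino, against 1 with RLE size factors, 2 with no filter on low counts, 2 with the sums of that stage alone, 1 with each gene without its highest well and 0 to 2 with 1 plate left out. In the blastocyst 0 passed, against 1 with no filter, 1 with that stage alone and 0 to 1 with a plate left out. For the mean of both stages 2 passed, against 1 with DESeq2, with every well, with wells of at least 4000 genes, with deep wells thinned to the plate median, with limma voom and with no replicate block, and 1 to 3 with a plate left out. For the difference between stages 0 passed, against 0 to 1 with a plate left out. With stage 8 passed in control wells, against 5 with DESeq2 and 4 to 7 with a plate left out, and 7 passed in NKX1-2 wells, against 8 with the replicate block, which left the control count at 8. Over all genes, the calls for the morpholino in the morula (62) became 15 with DESeq2, 179 with no filter, 34 without the block, 834 with that stage alone and 13 to 842 with a plate left out. In the blastocyst 80 became 20, 254, 43 and 130, and 575 and 638 without each blastocyst plate. For the mean 324 became 60, 532 and 185, and 92 to 1073 with a plate left out. For the difference 2 became 1 with DESeq2, every well, thinning, voom or no block, 27 with no filter and 4 to 255 with a plate left out. With stage 3993 became 2513 with DESeq2 and 2586 and 2596 without each morula plate in control wells, and 4690 became 2998 with DESeq2 and 2265 and 2969 without each blastocyst plate in NKX1-2 wells. The cause was not tested. With a plate left out, the lone plate is assumed to vary like the other group. With 2 plates per stage and 10 genes of which Krt19, Krt7 and Cubn had few counts, depth limits what could be seen for those 3.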
